A study of Mus musculus with 6 samples.

Results

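The genes described here are 10 targets of the transcriptional repressor Bcl6 known from B or T cells that act outside the cell cycle: Prdm1, Irf4, Irf7, Cd69, Cd80, S1pr1, Ccr6, Cd44, Selplg and Bcl2. They were chosen by name, with earlier results of these data known. Every peak that the authors' gene list ties to them was to be taken from the authors' peak table. All 10 were among the 21887 nuclear protein-coding genes of the mouse gene table used here, and 0 of the 10 appeared in the authors' gene list, under their symbols or under any of 45 older symbols. The list holds the genes that were given at least 1 peak, so these are 10 genes with 0 listed peaks.

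The data were chromatin immunoprecipitation and sequencing (ChIP-seq) of cortical progenitors grown from A2 lox.Cre Bcl6 mouse embryonic stem (ES) cells, in which a Bcl6 transgene is switched on through a tetracycline-inducible promoter. All groups used here share that line, cyclopamine at 400 ng/ml during differentiation, and 24 h of Bcl6 induction with doxycycline at 1 µg/ml at day 12. The Bcl6 ChIP group had 3 libraries and the input DNA group had 3, and peaks were called once on the pools. With duplicates removed, the pooled ChIP held 11718276 tags (20.6% of 56836596) and the pooled input 5048582 (39.4% of 12808138). All peak values are the authors' own for these pools and carry no error between replicates. Uninduced cells were not analysed here, so endogenous and induced Bcl6 cannot be told apart. The files hold DNA enrichment and no RNA, so the identity of the cells could not be checked from expression.

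Bcl6 is a zinc finger repressor that holds B cells in the germinal centre state and directs the fate of follicular helper T cells. In these cells it is known to repress genes for exit from the germinal centre, activation, migration and survival, acting through corepressors recruited by its BTB domain. Its DNA sites resemble those of STAT factors. In the developing cortex Bcl6 is known as a factor that promotes the neuronal differentiation of progenitors. The 10 genes are thus sites of Bcl6 action in one lineage, looked up in another.

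None of the 10 lymphoid targets had a listed peak in the induced progenitors (0%, exact 95% interval 0 to 30.8%), against 4393 of 21887 protein-coding genes (20.1%). The interval covers counting of genes only and holds the background share. The count is therefore not set apart from what genes in general showed. Within 1 kb of the transcription start site (TSS) 10.8% of all protein-coding genes had a listed peak. The members had 0 there, which follows from their having 0 listed peaks. A peak enters the table only past the caller's cutoff, and over all listed peaks the lowest tag count was 20 and, in a different peak, the lowest enrichment over input was 7.98-fold. Weaker enrichment at the members would not be seen in these files, so a gene without a peak is one without a called peak at this depth. Bcl6 itself, which its own product is known to repress in B cells, did have a peak, of 64.8-fold with 103 tags, 35 bp from its TSS. This gene was singled out after its value was seen.

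The surroundings of the 10 genes were then read directly from the peak table. In this reading 0 of the 10 gene bodies held a peak (15.4% of all protein-coding genes did), and with 5 kb added on both sides it was 0 of 10 again (18.8%). Within 50 kb, 2 of 10 members had a peak, Cd80 and Irf7 (exact 95% interval 2.52 to 55.6%), against 35.3% of all genes. The same 2 genes made up the count within 100 kb, where 45.3% of all genes had one. Within 500 kb it was 5 of 10 (18.7 to 81.3%), against 72.4%, and within 1000 kb 8 of 10 (44.4 to 97.5%), against 83.4%. At each of these distances the share of the members was below that of all genes, and at each the members' interval held the share of all genes. The windows are nested and count the same 10 genes, so they are not separate results.

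**Figure D1:**
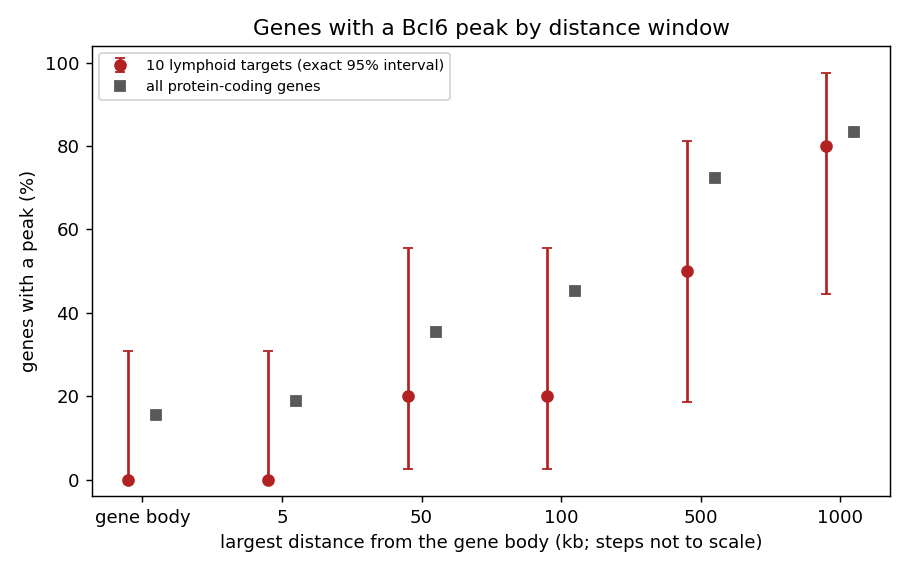
Share of genes with a Bcl6 peak in the gene body or within a given distance of it, in percent. Red circles are the 10 lymphoid targets with exact 95% intervals, grey squares all 21887 protein-coding genes. The red circles run from 0 to 80% and lie below the squares, which stay inside the intervals.

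Sequences at 2 of these loci show what lies beside a member with the closest peaks. The 250 bases upstream of the TSS, from RefSeq on GRCm38.p6 (the same build as mm10), are given for Cd80 and Irf7 and for the neighbour whose promoter carries the nearest peak, Timmdc1 and Phrf1. Capitals mark CpG dinucleotides. The window of Cd80 is chr16:38458683-38458932 on the plus strand and holds 3 CpGs, that of Timmdc1 is chr16:38522664-38522913 on the minus strand and holds 20. The window of Irf7 is chr7:141266425-141266674 on the minus strand and holds 3, that of Phrf1 is chr7:141228538-141228787 on the plus strand and holds 15. The windows of Timmdc1 and Phrf1 lie wholly inside a peak, with the summit 84 bp and 247 bp from the TSS.
Cd80: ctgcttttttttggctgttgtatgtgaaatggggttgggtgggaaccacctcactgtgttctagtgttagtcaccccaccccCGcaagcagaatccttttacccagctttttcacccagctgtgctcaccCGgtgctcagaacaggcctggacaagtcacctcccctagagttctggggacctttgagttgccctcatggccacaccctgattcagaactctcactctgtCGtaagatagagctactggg
Timmdc1: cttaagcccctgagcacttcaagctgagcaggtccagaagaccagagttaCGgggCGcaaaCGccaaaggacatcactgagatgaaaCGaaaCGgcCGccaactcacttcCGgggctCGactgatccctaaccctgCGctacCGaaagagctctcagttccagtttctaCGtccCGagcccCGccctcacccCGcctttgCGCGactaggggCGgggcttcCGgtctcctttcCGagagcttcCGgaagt
Irf7: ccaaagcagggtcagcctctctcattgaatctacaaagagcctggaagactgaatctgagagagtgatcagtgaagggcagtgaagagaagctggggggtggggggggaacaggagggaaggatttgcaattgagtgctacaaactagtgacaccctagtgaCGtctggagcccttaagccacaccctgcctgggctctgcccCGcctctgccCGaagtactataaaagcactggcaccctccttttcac
Phrf1: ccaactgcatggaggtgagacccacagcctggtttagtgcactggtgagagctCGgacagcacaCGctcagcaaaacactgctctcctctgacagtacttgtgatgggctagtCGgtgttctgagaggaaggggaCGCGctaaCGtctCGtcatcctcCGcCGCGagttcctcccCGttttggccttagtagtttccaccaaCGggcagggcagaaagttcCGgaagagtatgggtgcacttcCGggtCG

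The 3 transcription factor genes had their nearest peaks at the promoters of other genes. Prdm1 encodes Blimp-1, the repressor that drives plasma cell differentiation and whose repression by Bcl6 keeps germinal centre B cells from leaving that state. Its gene body on chromosome 10 runs from 44437174 to 44528558, and the nearest peak lay 538 kb away, from 45066564 to 45067753. That peak had 42 tags, 14.6-fold enrichment and a p-value score (−10 log10 p) of 61.62, and was centred 48 bp from the TSS of Prep, a peptidase gene. There were 0 protein-coding genes between Prdm1 and this peak. On the other side the first peak was 694 kb away and reached 42.2-fold.

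Irf4, an interferon regulatory factor needed for plasma cell formation, lies on chromosome 13 from 30749233 to 30766981. Its nearest peak was 762 kb away, with 106 tags and 12.8-fold enrichment, 369 bp from the TSS of E2f3, which encodes a transcription factor of the cell cycle. Of all peaks, 94.1% had at least that fold, so it ranked low by enrichment while 16.3% had as many tags or more. A peak of 15.5-fold on the other side, 914 kb away, was listed for the forkhead genes Foxf2 and Foxc1.

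Irf7, the regulator of type I interferon induction, lies in a denser region of chromosome 7, from 141263183 to 141266499, with 85 protein-coding genes within 1 Mb. It had 11 peaks within 500 kb, 5 of them within 100 kb. The nearest, 34.1 kb away from 141228015 to 141229077, had 51 tags and 30.9-fold enrichment and was listed for Phrf1 alone. It was followed by peaks of 14.9-fold at 40.7 kb, 13.2-fold at 46.7 kb and 26.6-fold at 68.6 kb, the last listed for Lrrc56 and Hras1, the Ras proto-oncogene. Each of the 11 was listed for genes other than Irf7.

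The activation and costimulation genes differed in their distance to a peak. Cd80 encodes the B7-1 ligand by which B cells and antigen-presenting cells engage CD28 and CTLA4 on T cells. Its gene body, on chromosome 16 from 38457430 to 38495958, was 26.1 kb from the nearest peak, the shortest distance among the 10. That peak, from 38522057 to 38523243, had 58 tags, 17.7-fold enrichment and a score of 68.32. It was centred 13 bp from the TSS of Timmdc1, which encodes an assembly factor of mitochondrial complex I, and was listed for that gene alone.

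Cd69 encodes an early activation antigen of lymphocytes that is known to bind S1pr1 and keep it off the cell surface. It lies on chromosome 6 from 129267324 to 129275375. Its nearest peak was 828 kb away, with 97 tags and 22.3-fold enrichment, 364 bp from the TSS of the cochaperone gene Fkbp4, and 14 protein-coding genes lay between. On the other side the first peak was 5290 kb away.

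S1pr1 itself, the receptor for sphingosine 1-phosphate that guides lymphocytes out of lymphoid tissue, lies on chromosome 3 from 115710433 to 115715055. It had 1 peak within 1 Mb, 292 kb away, with 69 tags and 30.6-fold enrichment. That peak was centred 326 bp from the TSS of Slc30a7 and 270 bp from that of Extl2. On the other side the first peak was 6810 kb away. Ccr6, the receptor for the chemokine Ccl20 on B cells and helper T cells, lies on chromosome 17 from 8236041 to 8258519 and had 0 peaks within 1 Mb. Its nearest peak was 2130 kb away, with 60 tags and 30.3-fold enrichment, and was listed for Tulp4 and Gtf2h5.

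Among the adhesion genes, Cd44, the hyaluronan receptor that marks activated and memory T cells and is also made by neural progenitors and glia, lies on chromosome 2 from 102811141 to 102901669. Its nearest peak, 359 kb away, had 40 tags and 25.1-fold enrichment and sat 46 bp from the TSS of Fjx1. The first peak on the other side, 858 kb away at Nat10, was stronger, with 156 tags and 31.9-fold. Selplg, which encodes the P-selectin ligand PSGL-1, lies on chromosome 5 from 113817798 to 113832528. Its nearest peak was 110 kb away, with 33 tags and 28.4-fold enrichment, and was listed for Coro1c and Ssh1, genes of actin regulation. Selplg had the most peaks within 1 Mb of the 10 genes, 12, among them peaks of 72.7-fold at Tchp and 53.1-fold next to Aym1.

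Bcl2, the inhibitor of apoptosis that Bcl6 is known to repress in germinal centre B cells, stood farthest from any peak. Its gene body spans 176 kb of chromosome 1, from 106538176 to 106714290, the longest of the 10. The nearest peak was 7260 kb away, and on the other side the first was at 12700 kb. Of all protein-coding genes, 1.47% were at least as far from a peak. That nearest peak had 28 tags and 27.9-fold enrichment and was given no gene by the authors' list. Within 1 Mb of Bcl2 there were 19 other protein-coding genes and 0 peaks.

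**Figure D2:**
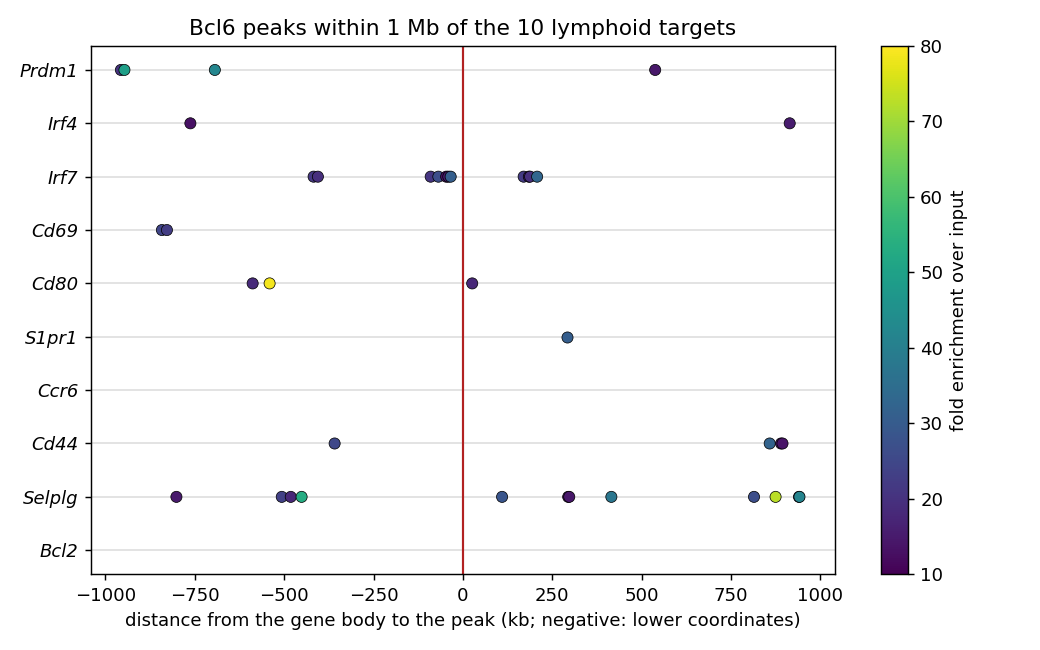
Position of every Bcl6 peak within 1 Mb of each lymphoid target, as the distance in kb from the nearer end of the gene body (the red line at 0), coloured by fold enrichment over input. Each row is 1 gene; 23 of the 39 peaks belong to the rows of Irf7 and Selplg, and the rows of Ccr6 and Bcl2 are empty.

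Over the 10 genes the median distance to the nearest peak was 448 kb (26.1 to 7260 kb), against a median of 132 kb over all protein-coding genes (quartiles 18.1 and 582 kb). Genes without a listed peak are farther from peaks by construction, and over these the median was 234 kb (quartiles 63.8 and 797 kb). Set against those, 7 of the 10 members were above the median and 3 above the upper quartile: Cd69, Ccr6 and Bcl2. A gap of over 500 kb was found for 5 members (Prdm1, Irf4, Cd69, Ccr6 and Bcl2), against 34.4% of the genes without a listed peak. No test was made of these distances, since the members are few and were chosen by name with earlier results of these data known.

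The members lay in regions of varied gene density. They had a median of 18.5 other protein-coding genes within 1 Mb, against 29 over all protein-coding genes, with Irf7 at 85 and Irf4 at 10. They had a median of 2.5 peaks within 1 Mb, against 4 over all genes (quartiles 1 and 10). The part of gene density in the distances to peaks was not tested.

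The peaks next to the members were ordinary peaks by their own values. The 10 nearest peaks had 12.8- to 30.9-fold enrichment with a median of 26.5, against a median of 21.3 over all 3878 peaks. They held 28 to 106 tags with a median of 54.5, against a median of 58. Of the 10, 7 were centred within 1 kb of the TSS of another gene, and over all peaks this was 56.0%. Among the 39 peaks within 1 Mb of a member, 27 were at such promoters (69.2%). By the rule of the authors' gene list, a nearby peak not given to a member lies in or beyond another gene's promoter region. A high share at the promoters of other genes is therefore partly built in, and these shares were not tested.

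**Figure D3:**
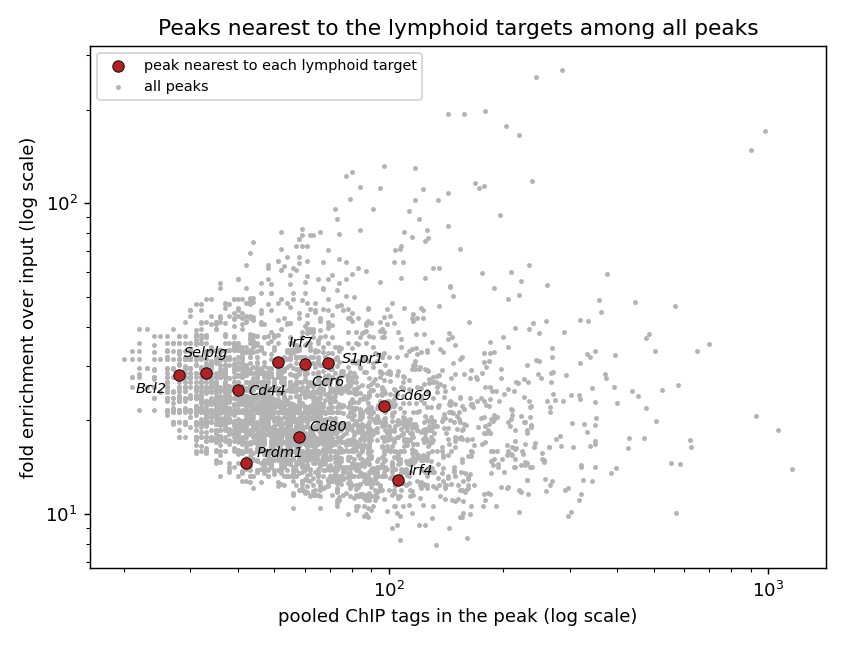
Fold enrichment over input against pooled ChIP tags, both on log scales, for the peak nearest to each lymphoid target (red, named by the target and not by the gene the peak is listed for) and for all 3878 peaks (grey). The red points lie between 12.8- and 30.9-fold, inside the grey cloud.

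Promoter windows of 300 bases, 250 before and 50 after the TSS, were found in RefSeq for 7 of the 10 members: Prdm1, Irf4, Irf7, Cd80, Ccr6 (with 2 windows), Cd44 and Bcl2. Cd69, S1pr1 and Selplg had no entry. With fewer than 8 of 10 members covered, a statement on the promoters of the list as a whole is void, and the values are given gene by gene. The ratio of observed to expected CpG was 1.02 at Bcl2 and 0.77 at Prdm1, which are high values of the kind found at CpG islands. It was 0.40 at Irf4, 0.31 at Irf7, 0.25 at Cd44 and 0.16 at Cd80, and 0.15 and 0.59 at the 2 windows of Ccr6. The median was 0.82 for genes with a listed peak within 1 kb (2516 windows) and 0.57 for all protein-coding genes (21263 windows). The ratios at Bcl2 and Prdm1 were near or above the median of promoters with a peak, and those at the other 5 members were below it. Any part of CpG content in the peaks was not tested. Of the neighbours whose promoters carried the nearest peaks, 5 had windows: the ratio was 0.86 at Timmdc1, 0.93 at Phrf1 and 1.08 at Fkbp4, and with 2 windows each it was 0.96 and 0.30 at Extl2 and 0.70 and 0.80 at E2f3.

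**Figure D4:**
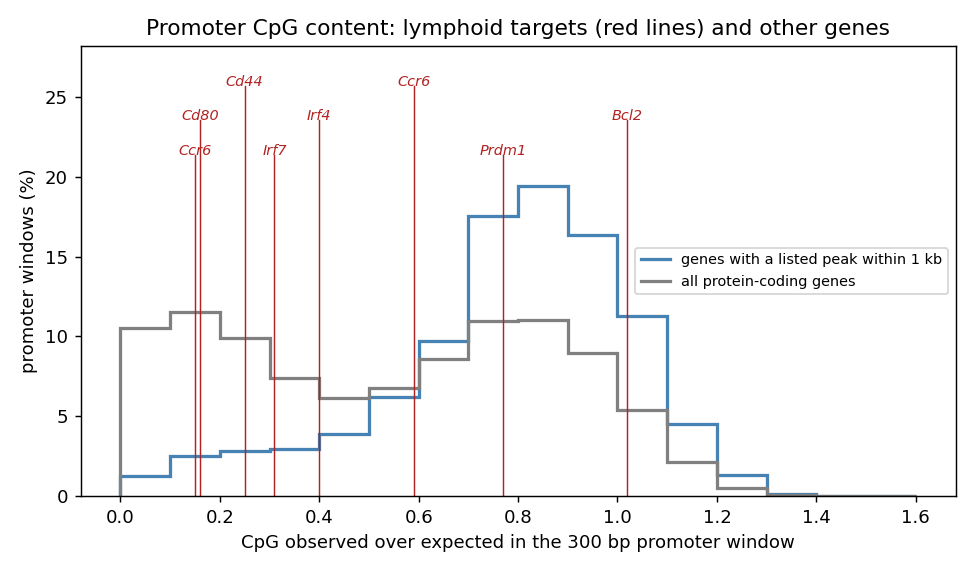
Ratio of observed to expected CpG in 300-base promoter windows. Red lines are the 8 windows of 7 lymphoid targets, the blue outline the windows of genes with a listed peak within 1 kb and the grey outline those of all protein-coding genes, in percent of windows. Bcl2 (1.02) and Prdm1 (0.77) fall under the main mass of the blue outline, and Cd80 (0.16) and a window of Ccr6 (0.15) lie at its low end.

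The letters TTCNNNGAA, a core shared by Bcl6 and STAT sites that reads the same on both strands, were searched in the same windows. They occurred in 1 of the 7 members with a window, Ccr6, in 1 of its 2 windows. Of all 21263 windows of protein-coding genes, 7.69% held them. Members are counted here as genes and the others as windows. These shares are thus not in like units, and no statement on the list as a whole is drawn from them. The stricter TTCCNNGAA, searched on both strands and contained in the first motif, was found at Ccr6 as well and in 4.66% of all windows. The full TTCCTAGAA was in 0 of the 7 and in 0.39% of all. The window of Ccr6 upstream of the TSS is shown because it holds both matches, in capitals, starting 157 and 120 bases before the TSS at chr17:8235793-8236042 on the plus strand. The nearest peak to Ccr6 was 2130 kb away, so this match lay outside any called peak. The windows of Timmdc1 and Phrf1, inside peaks, held 0 matches.
Ccr6: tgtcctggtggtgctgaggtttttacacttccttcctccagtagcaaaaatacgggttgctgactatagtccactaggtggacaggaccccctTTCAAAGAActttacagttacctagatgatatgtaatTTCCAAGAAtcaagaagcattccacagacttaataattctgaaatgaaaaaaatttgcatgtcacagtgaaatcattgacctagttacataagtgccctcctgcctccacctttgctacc

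Relatives and partners of the members did appear in the authors' list, and are given for lists fixed by name. Among 7 other interferon regulatory factors, 1 had a listed peak (14.3%): Irf1, a relative of Irf4 and Irf7 that activates interferon-stimulated genes. Irf1 had peaks of 18.3-fold 10.4 kb upstream, also listed for Il5, and 15.1-fold 50 bp from its TSS. Of 17 interferon response genes 2 had a listed peak (11.8%). The receptor gene Ifnar1 had peaks of 31.5-fold 20.4 kb upstream, also listed for Il10rb, and 18.6-fold 152 bp from its TSS. The RNA sensor gene Ddx58 had 1 of 17.7-fold 28.9 kb upstream, also listed for Topors. Among 14 PRDM genes related to Prdm1, 4 had a peak (28.6%). The strongest were Prdm15 (40.4-fold, 391 bp from the TSS), Prdm14 (30.6-fold, 41.9 kb) and Prdm8 (29.6-fold, 13.3 kb). The peak of Prdm14 was also listed for Slco5a1 and that of Prdm8 for Antxr2.

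Of 15 genes of the Bcl2 family 5 had a listed peak (33.3%), 3 of them within 1 kb of the TSS. Bax, which encodes a pore-forming executor of apoptosis, had 1 of 30.6-fold at 127 bp, the BH3-only gene Pmaip1 1 of 28.4-fold at 2700 bp and Bcl2l11, which encodes the BH3-only protein Bim, 1 of 24.8-fold at 393 bp. In the sphingosine 1-phosphate list 3 of 12 had a peak (25%): Mfsd2b, an exporter gene for sphingosine 1-phosphate (31.9-fold at 128 bp), Klf2, an activator of S1pr1 transcription in T cells (24.7-fold at 2814 bp), and the kinase gene Sphk2 (24.5-fold at 3430 bp). The other 4 receptor genes of the family were without a listed peak, as S1pr1 was. Of 20 chemokine receptor and ligand genes 2 had a listed peak (10.0%). Cxcr4 had 1 of 40.8-fold at 151 kb, also listed for Dars. Ccr4 had peaks of 17.1-fold at 66.8 kb and 17.0-fold at 8.27 kb, both also listed for Trim71. Ccl20, the ligand of Ccr6, had 0.

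Of 22 adhesion and homing genes 4 had a listed peak (18.2%). Mmp14, a membrane protease gene whose product is known to cleave CD44, had 1 of 34.6-fold at 220 bp, Itgb7 1 of 29.1-fold at 15.2 kb and Icam1 1 of 27.9-fold at 33 bp. Of 20 activation and costimulation genes 2 had a peak (10.0%), both far from the TSS: Cd83 (33.1-fold, 921 kb) and Icosl (25.6-fold, 90.5 kb). The peak of Cd83 was also listed for Jarid2 and that of Icosl for D10Jhu81e. Cd86, Cd28 and Ctla4, the relative and the receptors of Cd80, were without one. For each of these lists the exact 95% interval held the 20.1% of all protein-coding genes, and no test set a list against the members.

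**Figure D5:**
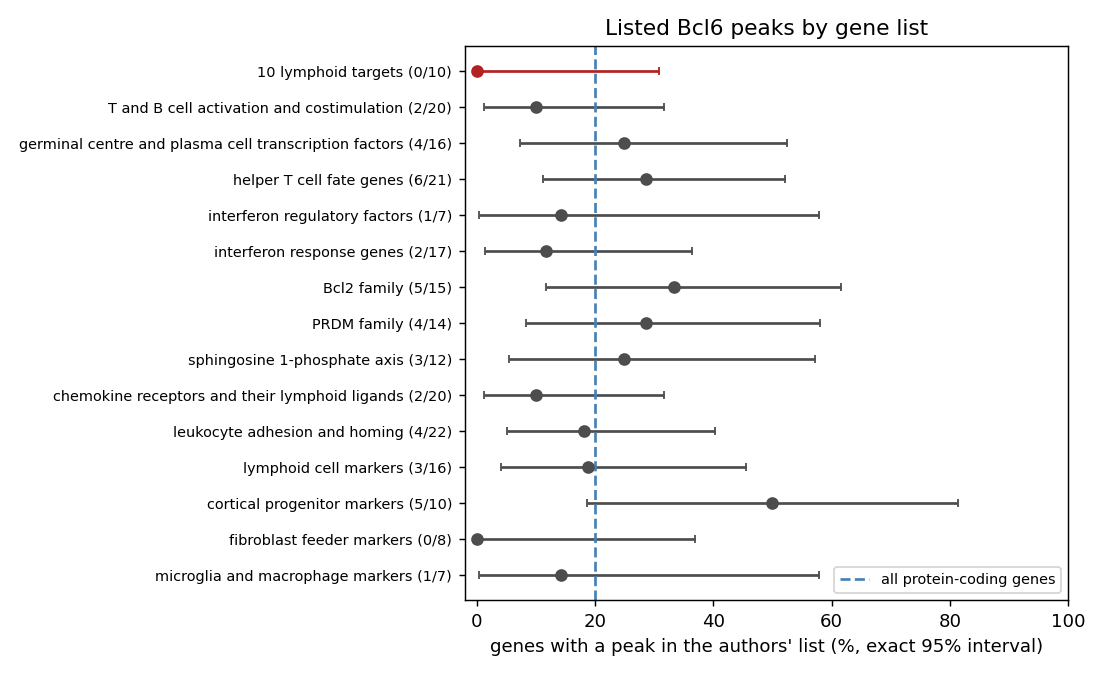
Share of genes with a peak in the authors' list, in percent with exact 95% intervals, for the 10 lymphoid targets (red, top row) and for related lists and cell type markers (grey), with counts beside each name. The dashed line is the share of all protein-coding genes, 20.1%, and it crosses every interval.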

How the data were processed

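Per the file headers, MACS 1.4.2 called the peaks from pooled ChIP and pooled input tags at a p-value cutoff of 1e-05. The submitters' processing notes name Bowtie and mm10. The tags per peak were deposited as raw counts. The fold enrichment is a ratio to local input background, the score is −10 log10 of the p-value and the FDR is a percent, all deposited by the authors. The score's column name was lost and was identified from column order and a minimum of 50.03. Per its header, the deposited gene list came from GREAT 3.0.0. Its domains reach 5000 bp before and 1000 bp after each TSS and are extended by up to 1000000 bp. In this rule an extension is known to stop at the basal domain of the next gene.

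Listed symbols were matched to the RefSeq table of GRCm38.p6 (98.5% of 5801 pairs). Distances were computed from the table's gene bodies, whose ends include predicted transcripts, with pandas 2.3.3, and intervals with scipy 1.17.1. The distance and motif code was tested on simulated data. The members and lists were chosen with earlier results of these data known. Genes named besides the members are those listed for nearby peaks, the 3 with the highest fold in each list and the genes sharing their peaks. In the Bcl2 family all 5 genes with a listed peak were named. Partners of members without a peak (Ccl20, Cd86, Cd28, Ctla4) were also named. The replicates are pooled in these files, so no test between samples was made. Alternatives varied the peak threshold, width, chromosomes, gene assignment, distance window and motif.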

Additional observations from a re-analysis of the deposited data

How the results depend on the processing

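The members had 0 listed peaks, so limits on the listed peaks could only give 0 of 10 and do not test that count. The share of all protein-coding genes was 10.8% with scores from the median up and 20.0% with FDR values up to 5%. It was 16.6% with widths up to 2 kb, 20.1% on autosomes and X, and 14.8% with the nearest listed TSS. With 5 kb around the TSS plus the gene body it was 14.6%. Promoter windows of 2 and 5 kb gave 0 members, which was fixed in the same way. Any overlap with the gene body and 5 kb could have raised the count, and it gave 0 of 10 (18.8% of all genes). With assignment by distance from the gene body, chosen after seeing the data, the count of members with a peak was 2 within 50 kb and 2 within 100 kb. It was 5 within 500 kb and 8 within 1000 kb. The count of member promoters with a motif was 1 with TTCNNNGAA, 1 with TTCCNNGAA and 0 with TTCCTAGAA. No paired analysis was possible because the replicates are pooled in the files, and for the same reason no replicate could be left out. Depth limits the result to called peaks: tag counts over the members themselves were not analysed here.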

Other observations

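Genes that carry out fate choices in lymphocytes upstream or downstream of the members were also looked up. Of 16 germinal centre and plasma cell transcription factor genes 4 had a listed peak (25%), all over 1 kb from the TSS. The strongest were at Ebf1, an early B cell factor (37.4-fold, 6.2 kb), Foxo1 (37.2-fold, 115 kb) and Bach2, which encodes a repressor of Prdm1 (37.1-fold, 42.3 kb). These peaks were also listed for Rnf145, Cog6 and Map3k7, in that order. Of 21 helper T cell fate genes 6 had a listed peak (28.6%), among them Gata3 (30.4-fold, 615 bp), Il6ra (27.6-fold, 22 bp) and Tcf7 (27.5-fold, 508 bp). The peak of Gata3 was also listed for 4930412O13Rik. Both shares had exact 95% intervals that held the 20.1% of all protein-coding genes.

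Of 16 lymphoid cell markers 3 had a listed peak (18.8%): Sdc1 (31.5-fold, 109 bp), Zap70 (23.1-fold, 23.3 kb) and Cd79a (16.8-fold, 7.22 kb). The peak of Zap70 was also listed for Tmem131 and that of Cd79a for Rps19. Cortical progenitor markers had one in 5 of 10 cases, fibroblast feeder markers in 0 of 8, and microglia and macrophage markers in 1 of 7, Cd68 at 20.9-fold. These are counts of binding sites and say nothing of which cells were present. The exact 95% interval was 18.7 to 81.3% for progenitor markers and 0 to 36.9% for feeder markers. It was 0.361 to 57.9% for microglia and macrophage markers and 4.05 to 45.6% for lymphoid markers. Each interval held the 20.1% of all protein-coding genes, and no test set these lists against each other.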
